A study of Mus musculus with 6 samples.

Results

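Naive pluripotency factor genes are auxiliary transcription factors and a signal that act on the earliest pluripotent state of mouse embryonic stem cells (mESCs). A set of 10 was chosen by name: Klf2, Klf4, Klf5, Esrrb, Nr5a2, Tbx3, Prdm14, Zfp42, Fgf4 and Tfcp2l1. These are 10 of the 21418 coding genes on chromosomes 1 to 19 in the GENCODE annotation of mm9. Their peaks were all ATAC-seq peaks that overlapped the gene body or lay within 50 kb of it. By this rule the 10 genes held 29 of 21698 autosomal peaks of the WT list and 37 of 22457 autosomal peaks of the Spen KO clone 3 list.

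ATAC-seq finds open chromatin through the places where the Tn5 transposase can insert sequencing adapters. All lines are haploid mESCs of mixed genetic background, grown on gelatin in serum with LIF. Spen is deleted in the KO clones and intact in WT, and in every line doxycycline switches on a transgene of Xist. The 6 sample records cover WT, Spen KO clone 2 and Spen KO clone 3, each untreated or given doxycycline at 2 ug per ml for 48 hr. The 2 lists used here name the line and not the doxycycline state, so no value below is assigned to a state. Spen KO clone 3 is 1 clone, and clone 2 was not analysed here. Each list combined 2 technical replicates, and the read depth behind them is unknown. With 1 list per line differences between the lines cannot be set against independent replicates, and none was tested. The Spen gene itself had 1 peak over its body in each list, 136 bp from its start in WT and 125 bp in Spen KO clone 3, so these data cannot tell whether the deletion label is right.

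In the naive state, mESCs resemble the epiblast of the embryo before implantation. LIF acts through Stat3 on Klf4 and Tfcp2l1, and Wnt signalling relieves the repression of Esrrb, so that these factors support the core circuit of Oct4, Sox2 and Nanog. Fgf4 works in the opposite sense, since its signal through Erk prepares the cells to leave this state.

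Each peak carries 1 value per replicate, and the scale of these values is not stated. The mean of the 2 values is called the score here and was used only to rank peaks within a list. A percentile of 100 would be the top of a list, and ranks run over the 22698 WT and 23656 Spen KO clone 3 peaks on chromosomes 1 to 19 and X. Peaks that overlap between the lists, by 1 bp or more, are shared, and any other peak is WT-only or clone 3-only. For shared peaks, the rank shift is the Spen KO clone 3 percentile of the score minus the WT percentile. A TSS peak has its midpoint within 1 kb of an annotated transcription start of the gene. Distances run from the outermost annotated start of the gene to the peak midpoint, which is that of the WT peak where a peak is shared.

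Tfcp2l1 lies in a segment of chromosome 1, from 100 to 130 Mb, where most Spen KO clone 3 peaks were clone 3-only, so it is given apart and the totals of peaks cover the other 9 genes unless all 10 are named. At these 9 genes, as over the autosomes, most of the strong peaks were found in both lists, and the peaks found in 1 list were mostly weak. The WT list had 25 peaks, of which 6 were WT-only (24.0%, 95% Wilson interval 11.5 to 43.4). Over all autosomal WT peaks the share was 26.0%, inside this interval. The Spen KO clone 3 list had 32 peaks, of which 13 were clone 3-only (40.6%, interval 25.5 to 57.7). The autosomal share was 28.4%, which is also inside. Intervals here cover counting error only.

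The 13 clone 3-only peaks had a median score percentile of 12.5, against 22.3 for all clone 3-only peaks on the autosomes. None of them reached the median score of the list (0 of 13, interval 0 to 22.8%), which 15.7% of all autosomal clone 3-only peaks did, a share inside the interval. The 6 WT-only peaks had a median percentile of 21.3, against 20.1 over all autosomal WT-only peaks, and 1 of them, upstream of Fgf4, passed the median score (16.7%, interval 3.01 to 56.4, beside 12.0% on the autosomes). With peaks at or above the list median alone, the WT-only share was 9.09% (interval 1.62 to 37.7) and the clone 3-only share 0% (interval 0 to 24.2), beside 6.29% and 9.02% on the autosomes, which the intervals hold. The shared peaks at these genes stood at a median percentile of 52.1 in WT and 56.7 in Spen KO clone 3, lower than the 61.5 and 61.8 of all shared autosomal peaks. List-only peaks were also narrower, with a median width of 377 bp in WT and 375 bp in Spen KO clone 3, against 563 and 576 bp for shared peaks. The same contrast was seen on the autosomes, with 439 and 430 bp against 584 and 557 bp.

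Among peaks within 1 kb of the TSS of any coding gene, 0 of 6 at these loci were WT-only (interval 0 to 39.0%), against 20.7% on the autosomes. Of such peaks in the Spen KO clone 3 list, 2 of 8 were clone 3-only (25%, interval 7.15 to 59.1), against 13.0%. Farther from coding starts, 6 of 19 were WT-only (31.6%, interval 15.4 to 54.0), against 29.9%. In the Spen KO clone 3 list 11 of 24 distal peaks were clone 3-only (45.8%, interval 27.9 to 64.9), against 37.5%. In all 4 cases the autosomal share fell inside the interval of the loci.

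The 19 shared peaks had a median rank shift of 0.376 percentile points (95% binomial interval -6.53 to 7.76), and over 16074 shared autosomal peaks the median was -0.0990. That median pools opposite shifts, of -2.88 within 1 kb of a coding TSS and 2.99 farther away. At the loci, the 6 shared peaks near coding starts had a median shift of -0.0929 (interval -22.1 to 10.4) and the 13 farther away 1.92 (interval -9.35 to 10.1), and each interval holds the autosomal median of its place. The shift was above 0 for 11 peaks and below 0 for 8. The sign of the median rested on the replicate used, since it was -4.90 without replicate 1 and 2.70 without replicate 2. For 14 of the 19 peaks the replicate percentiles of the lists overlapped (73.7%, interval 51.2 to 88.2), against 54.1% of all shared autosomal peaks, inside the interval. Both Spen KO clone 3 replicates stood above both WT replicates at 2 peaks (10.5%, interval 2.94 to 31.4), against 22.9% over all shared autosomal peaks. They stood below both at 3 peaks (15.8%, interval 5.52 to 37.6), against 23.1%. Neither share differs from the autosomes beyond its interval. Farther than 1 kb from coding starts, 2 of the 13 peaks were higher (15.4%, interval 4.33 to 42.2) and 1 lower (7.69%, interval 1.37 to 33.3), against 30.7% and 17.8% of such autosomal peaks, which the intervals hold. Near coding starts, 0 of 6 were higher (interval 0 to 39.0%) and 2 lower (33.3%, interval 9.68 to 70.0), against 13.4% and 29.5%. The order of the peaks was much alike in both lists, with a Spearman correlation of 0.912 between the lists' percentiles over these 19 peaks and 0.796 over all shared autosomal peaks. These are correlations across peaks, which are not independent replicates. Within a list, the median difference between the percentiles of the replicates at the loci was 8.59 points in WT and 10.7 in Spen KO clone 3.

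**Figure D1:**
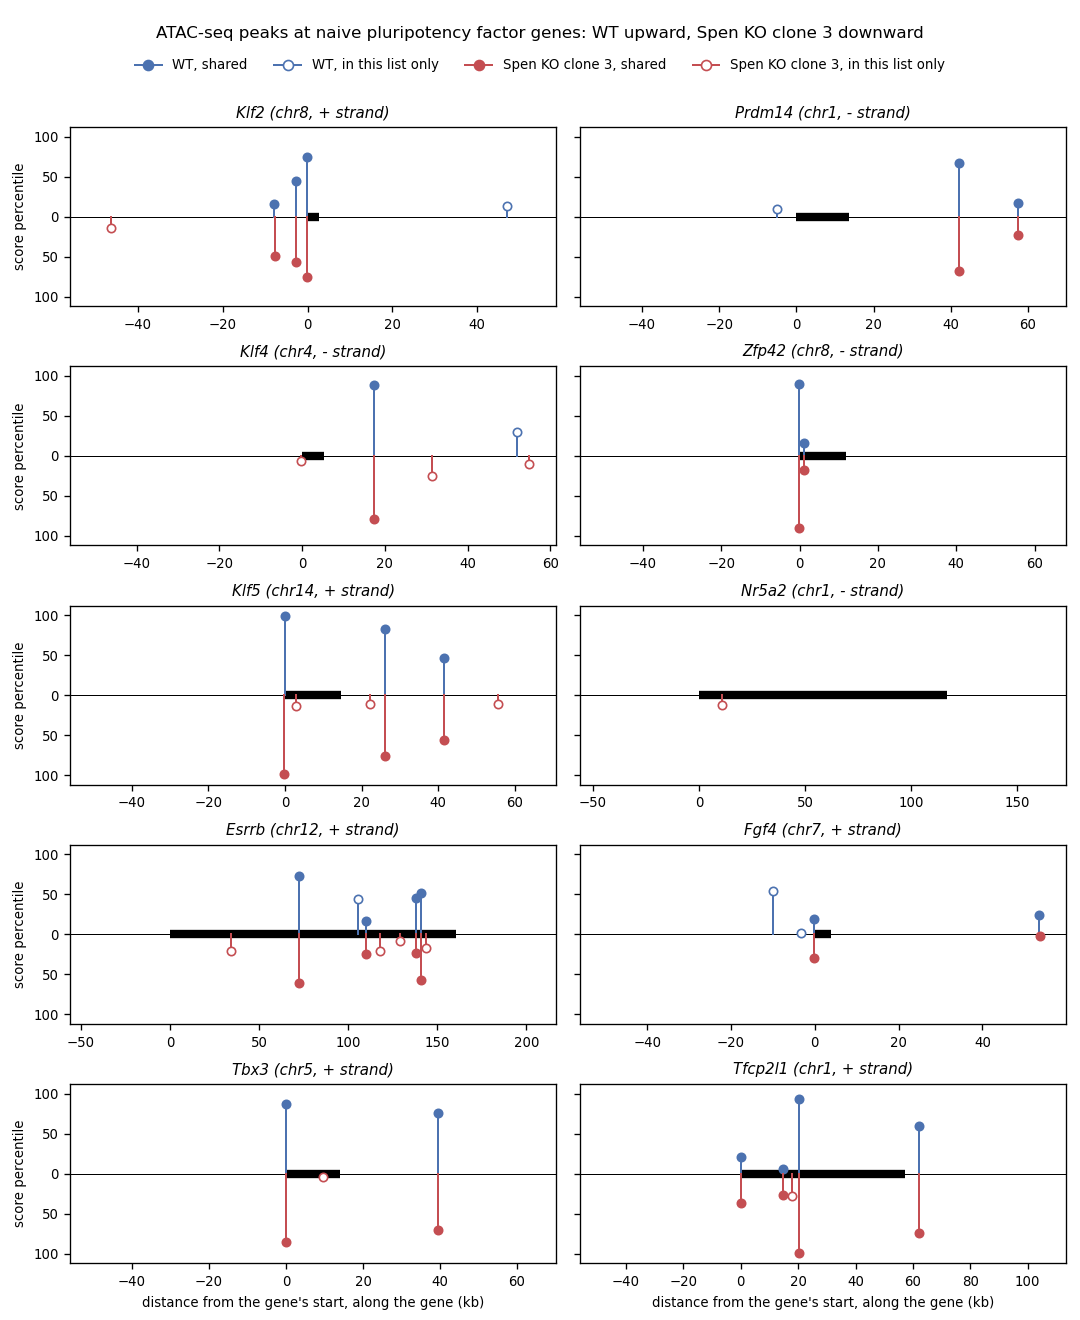
Peaks within 50 kb of each gene, placed by distance in kb from the start of the gene along its direction of transcription, with WT upward and Spen KO clone 3 downward; the height is the score percentile within the list, filled circles are shared peaks, open circles are peaks in 1 list only, and the black bar is the gene body. Open circles sit low in most panels, with the WT-only peak upstream of Fgf4 at 54.7 as the highest.

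A peak at an annotated start was found for 6 of the 10 genes in WT, against 45.6% of coding autosomal genes. In Spen KO clone 3 it was found for 8 of the 10, against 41.6% of coding autosomal genes. Without Tfcp2l1 these counts were 5 of 9 and 7 of 9. No interval was computed for these counts, and their difference from the coding genes was not tested. The genes with a TSS peak in WT were Klf2, Klf5, Tbx3, Zfp42, Fgf4 and Tfcp2l1, and each of these peaks was shared. The Spen KO clone 3 list added Klf4 at its coding start and Esrrb at the start of an internal noncoding transcript, both weak and clone 3-only. Prdm14 and Nr5a2 had no TSS peak in either list.

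The Krüppel-like factors bind GC-rich CACCC-type sequence, and any of Klf2, Klf4 and Klf5 can in part stand in for the others in mESCs. Klf2 lies on the plus strand of chromosome 8 from 74842932 to 74845555. Its window held 4 peaks in each list, or 3.90 per 100 kb, a density at percentile 87.3 of coding autosomal genes in WT and 90.1 in Spen KO clone 3. The TSS peak had replicate values of 27.6 and 25.8 in WT (rank 5896, 522 bp wide) and 27.4 and 21.4 in Spen KO clone 3 (rank 5885, 576 bp wide). It stood at percentiles 74.0 and 75.1, with overlapping replicates. Upstream of Klf2 a pair of shared peaks stood at higher percentiles in the Spen KO clone 3 list. The nearer, 2.69 kb from the start, had values of 16.6 and 20.3 in WT and 19.7 and 18.5 in Spen KO clone 3, and its replicate percentiles overlapped.

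The farther Klf2 peak, 7.83 kb upstream, had the highest shift of the 19 shared peaks. Its values were 13.8 and 12.1 in WT (rank 19230, 518 bp wide), and 18.8 and 16.9 in Spen KO clone 3 (rank 11884, 433 bp wide). It went from percentile 15.3 in WT to 49.8 in the other list, a shift of 34.5 points. The median over shared autosomal peaks farther than 1 kb from a coding TSS was 2.99. The shift of this Klf2 peak is at percentile 96.6 of all shared autosomal peaks, but the peak was picked as the highest of 19. The replicate percentiles were 21.1 and 13.3 in WT and 54.1 and 46.2 in Spen KO clone 3, so they did not overlap. It is intergenic, and the nearest coding TSS is that of Gm10282, 5.94 kb away. At the edges of the Klf2 window stood 1 weak WT-only peak in an intron of Eps15l1, 47.0 kb downstream at percentile 12.8, and 1 weak clone 3-only peak, 46.5 kb upstream at percentile 14.3.

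Klf4, the reprogramming factor of the family and a target of LIF and Stat3, lies on the minus strand of chromosome 4 from 55540013 to 55545347. The WT list had 2 peaks in its window and the Spen KO clone 3 list had 4. The leading peak is intergenic, 17.5 kb downstream of the start. Its values were 34.7 and 36.5 in WT (rank 2673, 667 bp wide) and 25.6 and 26.5 in Spen KO clone 3 (rank 4997, 618 bp wide). It stood at percentile 88.2 in WT and 78.9 in the other list, with a shift of -9.35, and both Spen KO clone 3 replicates lay below both WT replicates (76.7 and 79.5 against 85.6 and 89.5). This shift is at percentile 26.0 of all shared autosomal peaks.

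At the Klf4 start, only the Spen KO clone 3 list had a peak, from 55545275 to 55546030. It was weak, with values of 9.65 and 9.12, percentile 6.93 and rank 22018, but at 756 bp it was the widest list-only peak at the 9 genes. Its GC content was 73.8% and its ratio of observed to expected CpG was 0.934, above the medians of 63.4% and 0.758 for autosomal peaks of that list within 1 kb of a coding TSS. The nearest WT peak lay 17.1 kb away. The other Klf4 peaks found in 1 list were distal. A WT-only peak 51.9 kb downstream (18.5 and 13.2, percentile 29.7) and a clone 3-only peak 54.8 kb downstream (8.21 and 12.1, percentile 9.55) lay 2.44 kb apart, and a second clone 3-only peak was 31.5 kb downstream at percentile 25.1.

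Klf5, which supports self-renewal and the first lineages of the embryo, lies on the plus strand of chromosome 14 from 99697910 to 99712624. Its TSS peak was the top-ranked peak of the 9 genes in both lists. The values were 69.2 and 61.2 in WT (percentile 98.9, rank 241, 563 bp wide) and 55.7 and 51.7 in Spen KO clone 3 (percentile 98.4, rank 384, 524 bp wide). Both Spen KO clone 3 replicates lay below both WT replicates, although the shift was only -0.562 points. A shared intergenic peak 26.1 kb downstream had values of 35.2 and 27.1 in WT and 29.2 and 20.3 in Spen KO clone 3, with overlapping replicate percentiles. A second one, 41.4 kb downstream, had values of 20 and 17.5 in WT and 18.6 and 19.8 in Spen KO clone 3. At this peak both Spen KO clone 3 replicates stood above both WT replicates, at percentiles 53.4 and 59.8 against 50.7 and 42.9, with a shift of 10.1.

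The Spen KO clone 3 list added 3 weak peaks to the 3 shared ones at Klf5. One lay in a coding exon, 2.97 kb from the start (percentile 14.0), and the others were intergenic, 22.2 and 55.6 kb downstream (percentiles 10.5 and 11.1). The 6 peaks put Klf5 at percentile 96.4 of coding genes by peaks per 100 kb in that list, against 70.3 in WT. At Klf2, Klf4 and Klf5 together, the highest list-only peak was the WT-only Klf4 peak at 29.7.

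The leading Klf4 peak can be read in the reference sequence. The letters searched were CCACNCCC for KLF factors and CCAG followed after 6 bases by CCNG for TFCP2L1, read on either strand within 300 bp centred on the peak. The leading Klf4 distal peak held the KLF letters at 2 positions and the TFCP2L1 letters at 1, in both lists. The stretch chr4:55527805-55527983 of mm9 is shown on the minus strand, the strand of the gene, with the matches in capitals.
Klf4 distal: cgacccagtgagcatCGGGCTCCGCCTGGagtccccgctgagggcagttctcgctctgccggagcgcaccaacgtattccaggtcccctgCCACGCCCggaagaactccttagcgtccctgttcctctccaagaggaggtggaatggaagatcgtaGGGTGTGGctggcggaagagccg

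No searched motif was found in the 300 bp at the centre of the Klf4 TSS peak. Its CpG content is visible in the 150 bases that precede the annotated start, chr4:55545348-55545497 of mm9 on the minus strand, where capitals mark the 20 CpG pairs.
Klf4 TSS: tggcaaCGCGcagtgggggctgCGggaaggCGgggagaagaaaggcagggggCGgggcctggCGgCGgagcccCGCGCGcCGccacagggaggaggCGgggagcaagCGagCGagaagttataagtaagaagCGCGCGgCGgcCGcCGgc

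The nuclear receptors of the set are Esrrb and Nr5a2, which bind extended single sites and can each support the expression of Oct4. Esrrb, on the plus strand of chromosome 12 from 87702067 to 87862578, is the longest of the genes at 161 kb. It had no peak at its outermost start in either list, and all of its peaks lay inside the gene with their midpoints in introns, 5 in WT and 8 in Spen KO clone 3. The top peak, 72.4 kb into the gene, had values of 25.5 and 27.3 in WT (percentile 73.2, rank 6076, 435 bp wide) and 23.7 and 16.7 in Spen KO clone 3 (percentile 61.0, rank 9232, 422 bp wide). The next, 141 kb into the gene, had 20.5 and 19.3 in WT (percentile 52.1) and 21.8 and 16.5 in Spen KO clone 3 (percentile 56.5). At both of these Esrrb peaks the replicates of the lists overlapped.

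The lowest shift of the 19 shared peaks was also in Esrrb, 138 kb from the start. Its values were 20 and 17.1 in WT (percentile 45.4) and 10.4 and 16.2 in Spen KO clone 3 (percentile 22.8), a shift of -22.6. Only the replicate at 10.4 was far below WT, and the percentiles of the other Spen KO clone 3 replicate (42.9) and the lower WT replicate (40.6) overlapped. The remaining shared peak of Esrrb, 110 kb from the start, stood at percentiles 16.7 and 24.5. The single WT-only peak, 105 kb from the start, had values of 14.3 and 22.4 (percentile 44.5) and lay 4.34 kb from the nearest Spen KO clone 3 peak. The 4 clone 3-only peaks stood between percentiles 8.55 and 21.0. One of them, at percentile 16.7, lay 152 bp from the start of a noncoding transcript inside Esrrb, 143 kb from the outermost start.

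Nr5a2 (Lrh-1), on the minus strand of chromosome 1 from 138740161 to 138857004, was the gene with the fewest peaks. The WT list had none in its window, as for 17.5% of coding autosomal genes. The Spen KO clone 3 list had 1, a clone 3-only peak with values of 10.4 and 11.5 (percentile 12.5, rank 20693, 635 bp wide). It lies in an intron, 4.24 kb from the nearest annotated start, and the nearest WT peak was 102 kb away. By peaks per 100 kb, Nr5a2 stood at percentile 8.73 of coding genes in WT and 19.9 in Spen KO clone 3.

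Tbx3 is a T-box factor, and Prdm14 is a PR-domain factor that holds back Fgf signalling and DNA methylation in the naive state. The leading peak of each stood at nearly the same score percentile in both lists. Tbx3 lies on the plus strand of chromosome 5 from 120120678 to 120134733. Its TSS peak, with its midpoint in untranslated exon sequence, had values of 34.2 and 34.2 in WT (percentile 86.6, rank 3039, 658 bp wide) and 28.9 and 30.9 in Spen KO clone 3 (percentile 85.5, rank 3423, 844 bp wide). The intergenic peak 39.4 kb downstream had 25.2 and 29.5 in WT (percentile 75.3) and 21.7 and 23.8 in Spen KO clone 3 (percentile 70.6). Replicates overlapped at both. The Spen KO clone 3 list added 1 intronic peak with values of 9.11 and 8.15 at percentile 4.30. It lay 68 bp from the start of an internal noncoding transcript and 570 bp from a coding Tbx3 start.

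Prdm14, on the minus strand of chromosome 1 from 13103538 to 13117244, had no peak in its body in either list. It lies outside the segment that holds Tfcp2l1. The leading peak was intergenic, 42.1 kb downstream of the start, with values of 18.5 and 29.7 in WT (percentile 67.4, rank 7396, 751 bp wide) and 20.1 and 23.7 in Spen KO clone 3 (percentile 67.7, rank 7640, 699 bp wide). A second shared peak, 57.3 kb downstream, stood at percentiles 16.9 and 22.9. Replicates overlapped at both, and the WT replicates of the leading peak were far apart, at percentiles 43.8 and 81.0. A weak WT-only peak lay 5.14 kb upstream at percentile 8.93, and it was the only Prdm14 peak found in 1 list.

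Zfp42 encodes Rex1, a zinc finger protein used as a reporter of the naive state, and it was the member whose peaks were most alike. It lies on the minus strand of chromosome 8 from 44380422 to 44392363 and had 2 peaks in each list, all shared. The TSS peak had values of 35.6 and 39.8 in WT (percentile 90.1, rank 2249, 574 bp wide) and 31.2 and 37.1 in Spen KO clone 3 (percentile 90.5, rank 2255, 577 bp wide), a shift of 0.376. The other, in an intron 1.15 kb from the start, stood at percentiles 16.1 and 18.0. Replicates overlapped at both Zfp42 peaks. The TSS peak had a GC content of 53.7% in WT, below the median of 63.4% for WT autosomal peaks near coding starts.

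Fgf4, the secreted ligand of the set, lies on the plus strand of chromosome 7 from 152047291 to 152051148. It was the gene with the most WT-only peaks, 2 of 4, and it had no clone 3-only peak. The first, 9.87 kb upstream, had values of 22.4 and 18.6 (percentile 54.7, rank 10282, 410 bp wide) and is intergenic, 9.36 kb from the nearest Spen KO clone 3 peak. No other list-only peak of the 9 genes scored as high as the median of its list. The second, 3.30 kb upstream, had values of 8.90 and 6.98 and stood at percentile 1.44, the lowest of all WT peaks at these genes. The shared TSS peak was itself low, with 14.0 and 14.0 in WT (percentile 19.7, 399 bp wide) and 17.4 and 11.9 in Spen KO clone 3 (percentile 30.1, 341 bp wide), and its replicates overlapped.

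The last Fgf4 peak, 53.6 kb from the start, lies at the TSS of the neighbouring gene Oraov1, 141 bp from it in WT and 61 bp in Spen KO clone 3. Its values were 14.4 and 15.6 in WT (percentile 24.4) and 7.48 and 8.34 in Spen KO clone 3 (percentile 2.32). Both Spen KO clone 3 replicates lay below both WT replicates, with a shift of -22.1, at percentile 9.39 of all shared autosomal peaks. With only peaks at a start of a member or nearest to it, the peaks with separate replicates were 1 higher and 2 lower in Spen KO clone 3. The higher count also moved to 1 with a 25 kb window and to 0 in gene bodies.

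**Figure D2:**
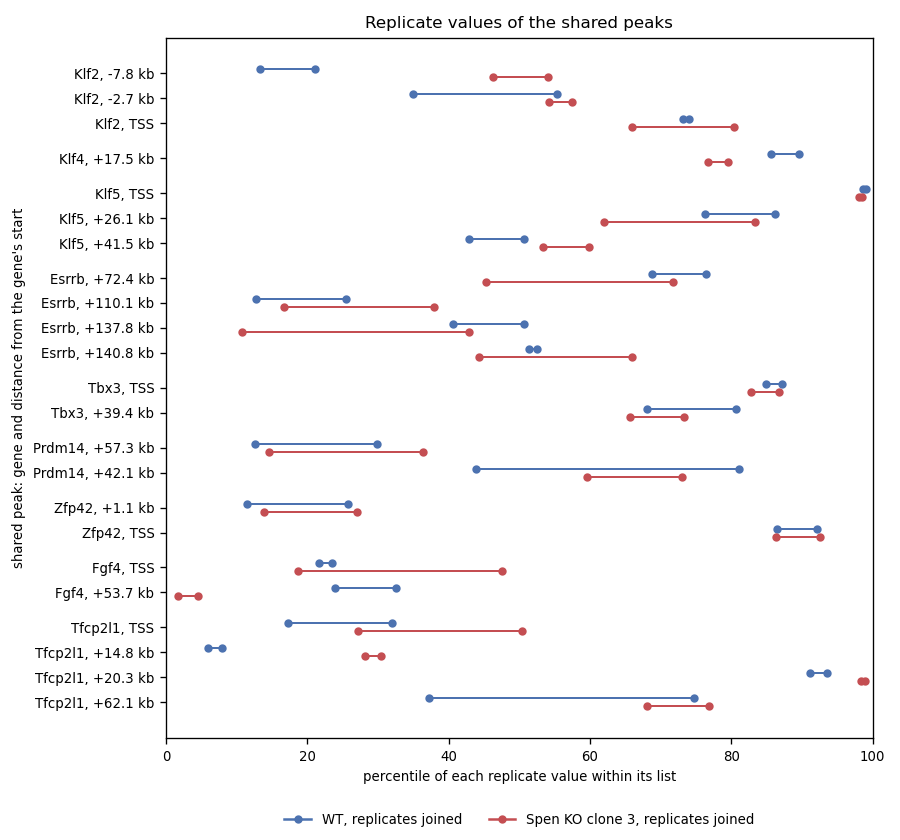
Percentile of each replicate value within its list for the shared peaks, named by gene and by distance in kb from the start of the gene, with the replicates of a list joined by a line. The lines of WT and Spen KO clone 3 overlap at 14 of the 19 peaks outside Tfcp2l1, and at 2 of the 4 Tfcp2l1 peaks, with the Spen KO clone 3 line wholly to the right at the other 2. Over all shared autosomal peaks the replicates overlapped at 54.1%.

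Tfcp2l1, a CP2-family factor and target of LIF and Stat3, is named Tcfcp2l1 in the annotation and lies on the plus strand of chromosome 1 from 120524522 to 120581744. All 4 of its WT peaks were shared, and all 4 had higher percentiles in Spen KO clone 3, with a median shift of 15 points. The intronic peak 20.3 kb from the start led in both lists, with values of 44.2 and 38.4 in WT (percentile 92.8, rank 1625, 612 bp wide) and 59.2 and 53.7 in Spen KO clone 3 (percentile 98.7, rank 301, 639 bp wide). Both Spen KO clone 3 replicates stood above both WT replicates there. The same held for an intronic peak 14.8 kb from the start, with 9.63 and 10.4 in WT (percentile 6.36) and 14.0 and 14.0 in Spen KO clone 3 (percentile 26.4). The TSS peak had 13.0 and 15.5 in WT (percentile 20.9) and 13.9 and 17.7 in Spen KO clone 3 (percentile 37.0), with overlapping replicates. A peak 62.2 kb from the start, beyond the end of the gene, stood at percentiles 59.8 and 73.6, also with overlapping replicates. The 1 clone 3-only peak, in an intron 18.0 kb from the start, had values of 14.9 and 13.7 (percentile 28.4).

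The surrounding segment of chromosome 1 showed the same direction. There, 63.2% of the 356 Spen KO clone 3 peaks were clone 3-only (interval 58.1 to 68.0), and 7.69% of 143 WT peaks were WT-only (interval 4.35 to 13.2). Its 131 shared peaks had a median shift of 19.9 points (interval 15.8 to 23.6), and 76.3% (interval 68.4 to 82.8) had both Spen KO clone 3 replicates above both WT replicates. At Tfcp2l1 this was 2 of 4 shared peaks. With only 4 shared peaks, the shifts at Tfcp2l1 cannot be told apart from those of its segment. Of the 5 Spen KO clone 3 peaks at Tfcp2l1, 1 was clone 3-only (interval 3.62 to 62.4%). The 63.2% of the segment lies just above this interval, but the interval of the segment (58.1 to 68.0) overlaps it. The segment also includes these 5 peaks, which are too few to tell whether the clone 3-only share was lower at Tfcp2l1. With Tfcp2l1 counted among the others, shared peaks with separate replicates were 4 higher and 3 lower in Spen KO clone 3.

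The leading Tfcp2l1 peak held the KLF letters and, close by, the TFCP2L1 letters in both lists. The WT window also held a second TFCP2L1 match, from 120544941 to 120544954, outside the stretch shown. The matches found in both lists are shown in capitals in chr1:120544659-120544776 of mm9, on the plus strand.
Tfcp2l1 distal: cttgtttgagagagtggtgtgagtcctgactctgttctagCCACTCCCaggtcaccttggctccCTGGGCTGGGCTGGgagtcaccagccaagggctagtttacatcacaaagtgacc

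Across the 9 genes, the POU octamer ATGCNAAT, which Oct4 and related factors bind, was present in 5 of 25 WT peaks (20%, interval 8.86 to 39.1) and in 5 of 32 Spen KO clone 3 peaks (15.6%, interval 6.86 to 31.8). Over all autosomal peaks the shares were 5.67% and 5.99%, below both intervals. Both lists kept this with 500 bp and with whole peaks. The lists are not independent here, since the Klf2, Klf5, Prdm14 and Zfp42 sites were the same in both. At Esrrb the WT match was in a shared peak and the Spen KO clone 3 match in a clone 3-only peak. Away from coding starts, the shares were 21.1% in WT (interval 8.51 to 43.3) and 16.7% in Spen KO clone 3 (interval 6.68 to 35.9), beside 8.20% and 8.24% of distal autosomal peaks. The Spen KO clone 3 interval holds the autosomal share. The WT interval was barely above it, and held the autosomal 10.2% with 500 bp and 10.5% with whole peaks, so the distal difference did not hold in every window. Near coding starts, only the Zfp42 TSS peak held the octamer. It was 1 of 6 WT peaks (16.7%, interval 3.01 to 56.4, beside 2.19%) and 1 of 8 Spen KO clone 3 peaks (12.5%, interval 2.24 to 47.1, beside 2.18%). With 500 bp these intervals hold the autosomal 3.23% and 3.30%. The octamer was found at Klf2, Klf5, Esrrb, Prdm14 and Zfp42. It lay in the Klf2 peak 7.83 kb upstream and the Klf5 peak 41.4 kb downstream. These are the 2 shared peaks of the 9 genes with both Spen KO clone 3 replicates above WT. The other shared peaks with the octamer had overlapping replicates. They were the Prdm14 peak 57.3 kb downstream, the Zfp42 TSS peak and, in the WT window alone, the Esrrb peak 110 kb from the start. The pairing of octamer and rank was seen after the fact and was not tested. The Klf2 stretch is chr8:74835167-74835254 and the Klf5 stretch chr14:99739439-99739526, both on the plus strand of mm9, and the Prdm14 stretch, from the peak 57.3 kb downstream, is chr1:13059809-13059896 on the minus strand. Capitals mark the octamer or its reverse complement.
Klf2 distal: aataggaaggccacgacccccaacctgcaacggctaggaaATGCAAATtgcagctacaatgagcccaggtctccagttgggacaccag
Klf5 distal: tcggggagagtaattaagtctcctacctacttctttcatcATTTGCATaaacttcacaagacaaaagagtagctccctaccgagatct
Prdm14 distal: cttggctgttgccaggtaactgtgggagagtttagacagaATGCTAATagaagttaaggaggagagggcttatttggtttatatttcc

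The nuclear receptor letters TCAAGGNCA, an extended single site of the kind that Esrrb and Nr5a2 bind, were present in 3 of 25 WT peaks (12.0%, interval 4.17 to 30), beside 1.65% of all autosomal WT peaks. In Spen KO clone 3 they were present in 2 of 32 peaks (6.25%, interval 1.73 to 20.1), an interval that holds the autosomal 1.90%. That result depended on the window, since with 500 bp they were present in 4 of 32 peaks (12.5%, interval 4.97 to 28.1), above the autosomal 3.18%, and with whole peaks in 9.38% (interval 3.24 to 24.2), which holds the autosomal 3.34%. The WT share was 12.0% in every window, above 2.98% and 3.24% of autosomal peaks. Among distal WT peaks it was 10.5% (interval 2.94 to 31.4), which holds the distal autosomal 4.02% with 500 bp and 3.92% with whole peaks, though not the 2.27% with 300 bp. Distal Spen KO clone 3 peaks went the other way, with 3 of 24 at 500 bp (12.5%, interval 4.34 to 31.0, above the autosomal 4.16%), while at 300 bp (4.17%, interval 0.739 to 20.2) and over whole peaks (8.33%, interval 2.32 to 25.8) the intervals hold the autosomal 2.54% and 4.04%. The WT and Spen KO clone 3 lists cannot be told apart by these letters. The peaks were the Zfp42 TSS peak in both lists, the WT-only peak upstream of Fgf4, the Esrrb peak 141 kb from the start in WT and the clone 3-only Esrrb peak at the internal noncoding start. In the shared Esrrb peak the letters lay outside the central 300 bp of the Spen KO clone 3 peak. The stretches are chr12:87842969-87843057 for the shared Esrrb peak, chr12:87845459-87845631 for the clone 3-only Esrrb peak and chr7:152037237-152037325 for Fgf4, all on the plus strand of mm9. Capitals mark the nuclear receptor letters and, in the clone 3-only Esrrb stretch, also those of TFCP2L1 and KLF.
Esrrb shared: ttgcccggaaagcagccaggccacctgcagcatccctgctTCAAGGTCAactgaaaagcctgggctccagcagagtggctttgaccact
Esrrb clone 3-only: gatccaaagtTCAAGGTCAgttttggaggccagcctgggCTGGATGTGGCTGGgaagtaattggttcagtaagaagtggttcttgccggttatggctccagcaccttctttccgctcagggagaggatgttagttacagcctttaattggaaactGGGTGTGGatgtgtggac
Fgf4 WT-only: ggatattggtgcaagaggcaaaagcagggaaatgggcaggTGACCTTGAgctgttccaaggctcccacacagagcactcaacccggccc

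The Zfp42 TSS peak, level between the lists, was the one member peak with the nuclear receptor, POU and KLF letters together. They lie upstream of the annotated start in chr8:44392416-44392596 of mm9, shown on the minus strand, the strand of the gene, with the matches in capitals.
Zfp42 TSS: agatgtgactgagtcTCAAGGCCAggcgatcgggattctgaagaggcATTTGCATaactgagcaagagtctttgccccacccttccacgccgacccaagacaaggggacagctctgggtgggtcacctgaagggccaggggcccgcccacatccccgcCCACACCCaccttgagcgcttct

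The other motifs were at or near their autosomal shares. KLF letters were present in 12.0% of WT peaks at the 9 genes (interval 4.17 to 30) and 21.9% of Spen KO clone 3 peaks (interval 11 to 38.8), beside 20.5% and 19.8% of all autosomal peaks. TFCP2L1 letters were present in 16% (interval 6.40 to 34.7) and 15.6% (interval 6.86 to 31.8), beside 14.0% and 13.1%. The shares grew with the window, at the loci and on the autosomes. With 500 bp the KLF shares were 28.0% in WT and 37.5% in Spen KO clone 3, beside 28.8% and 27.4% on the autosomes, and the TFCP2L1 shares were 20% and 25%, beside 21.3% and 19.8%. All of these autosomal values lay inside the intervals of the loci. In no peak of either list at the 9 genes did the central 300 bp hold the STAT letters TTCCNGGAA or the T-box letters AGGTGTGA, nor the PRDM14 letters GGTCTCTAA, nor the octamer with CATTGT directly or 1 base before it. These letters were rare in all autosomal WT peaks, at 1.26% for STAT, 0.991% for T-box, 0.198% for PRDM14 and 0.0230% for the SOX and POU pair. Wider windows held a few, with T-box letters in 2 of 25 WT peaks over whole peaks (8%, interval 2.22 to 25, beside 1.96%) and PRDM14 letters in 1 of 32 Spen KO clone 3 peaks at 500 bp (3.12%, interval 0.554 to 15.7, beside 0.361%). A match is a description of sequence in the mm9 reference and not evidence of binding.

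Most peaks at the loci lay away from coding starts, with 24.0% of WT peaks (interval 11.5 to 43.4) and 25% of Spen KO clone 3 peaks (interval 13.3 to 42.1) within 1 kb of a coding TSS, beside 42.1% and 37.1%. Both intervals hold the autosomal value. By midpoint, 17 of the 25 WT peaks were intergenic and 7 intronic, and of the 32 Spen KO clone 3 peaks 19 were intergenic and 11 intronic. No peak at the 9 genes was multi-copy, meaning that at least 50% of its 24-base sequences occur at least 10 times in the genome (0 of 25, interval 0 to 13.3%, and 0 of 32, interval 0 to 10.7%). Over the autosomes 5.36% of WT and 9.05% of Spen KO clone 3 peaks were multi-copy, and 17.1% of clone 3-only peaks. Over the 10 genes the median was 2.23 peaks per 100 kb in WT and 2.85 in Spen KO clone 3, beside 1.63 and 1.53 over coding autosomal genes, and without Tfcp2l1 it was 1.92 and 2.63.

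Other genes of the same circuit were read in the same 50 kb windows. The core factors Pou5f1 (Oct4), Sox2, Nanog and Sall4 all had peaks in both lists, 13 in each, of which 6 were WT-only (46.2%, interval 23.2 to 70.9) and 5 clone 3-only (38.5%, interval 17.7 to 64.5), beside 26.0% and 28.4% of all autosomal peaks. A TSS peak was present at Sox2 (11.8 and 17.8) and Sall4 (16.5 and 14.9) in WT, and at 0 of the 4 in Spen KO clone 3. Over all coding autosomal genes the shares with a TSS peak were 45.6% and 41.6%, and the counts here were not tested against them. Of 13 other naive-state genes, 5 had a TSS peak in WT and 4 in Spen KO clone 3, with 3 in common, Fbxo15, Tet2 and Stat3. Without the X-linked Nr0b1 the counts were 4 and 4 of 12. The 12 of them on the autosomes had 30 WT peaks (40% WT-only, interval 24.6 to 57.7) and 29 Spen KO clone 3 peaks (37.9% clone 3-only, interval 22.7 to 56.0). All of these intervals hold the autosomal share. From WT to Spen KO clone 3, the TSS peaks of Stat3, Tet2 and Fbxo15 did not share a direction. They stood at percentiles 91.8 and 73.5 for Stat3, the transducer of LIF, 58.3 and 32.7 for Tet2, and 72 and 79.9 for Fbxo15. Shared autosomal peaks within 1 kb of a coding TSS had a median shift of -2.88. The shifts of these 3 peaks were not tested against it. Of 8 primed-state genes, 3 had a TSS peak in each list, or 3 and 2 of 7 without the X-linked Sox3. At the 7 on the autosomes 27.8% of 18 WT peaks (interval 12.5 to 50.9) and 40.9% of 22 Spen KO clone 3 peaks (interval 23.3 to 61.3) were in 1 list only. Median shifts of shared peaks were 2.04 over 8 peaks for the core factors, 0.545 over 18 for the other naive-state genes and 9.47 over 13 for the primed-state genes.

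Markers of other cell types were counted in the same way, beside the 45.6% of coding autosomal genes with a TSS peak in WT and 41.6% in Spen KO clone 3. Of 5 primitive endoderm genes, 2 had one in WT and 1 in Spen KO clone 3. For 5 trophoblast genes the counts were 1 and 2, for 4 matched neural genes 3 and 1, for 5 mesoderm genes 0 and 0, and for 5 fibroblast genes 1 and 0. Median shifts of their shared peaks ran from -9.99 over 4 peaks for primitive endoderm to 10.6 over 10 peaks for the neural genes. At the neural genes 0 of 10 Spen KO clone 3 peaks were clone 3-only (interval 0 to 27.8%), just short of the autosomal 28.4%. All other list-only intervals of these cell type lists hold the autosomal share. These lists are too short to rank against each other. A TSS peak shows an open start and not expression, and the part of other cell types in the values above was not tested.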

How the data were processed

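The submitters' processing notes name bcl2fastq, cutadapt, Bowtie2, MACS2 and bedtools, with mm9 as the build. The authors called peaks on each technical replicate and kept those that passed a threshold on the Irreproducible Discovery Rate, whose largest value was 0.0500 in both lists. For ranking, the 2 replicate values deposited by the authors were averaged into a score, in units that are not stated. Only uniquely mapped reads were kept by the authors, so repeated sequence can be under-called. Lengths equal end minus start plus 1, so coordinates were read as counted from 1.

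Overlaps, TSS distances, motifs and 24-base copies were computed with samtools 1.23.1 and Python 3.11.15 (pysam 0.24.0, numba 0.67.0, scipy 1.17.1, pandas 2.3.3, numpy 2.4.6, matplotlib 3.10.9), and tested on simulated data. Tfcp2l1 was matched by a synonym in the RefSeq gene table, and Sox1 of the neural list was not matched and not used. Sequences were read from the mm9 reference. The text names each TSS peak, the 2 highest distal peaks of each gene and list, and list-only distal peaks at or above the list median, and other peaks were named after their values were seen. The members and lists were chosen with earlier results of these data known. Alternatives covered the window, the TSS distance, the overlap, list length, score, replicate and motif window.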

Additional observations from a re-analysis of the deposited data

How the results depend on the processing

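No paired analysis was possible because each line has 1 list and no result comes from a test. Limiting the peaks to gene bodies left 11 WT and 18 Spen KO clone 3 peaks. Of these 9.09% were WT-only and 44.4% clone 3-only, against 24.0% and 40.6% with 50 kb windows. Over all autosomal peaks the shares were 26.0% and 28.4%. No interval was computed for the few peaks in gene bodies, so their shares were not compared with the autosomes or with each other. Among shared peaks in gene bodies, 0 were higher and 1 lower in both Spen KO clone 3 replicates. With 25 kb windows 1 was higher. With 100 kb windows there were 39 WT peaks, and 6 shared peaks were lower. With Tfcp2l1 counted, 4 were higher, and with only peaks at or nearest to a member's start, 1 was higher. Keeping only the upper part of each list, from its median score, gave 9.09% WT-only, 0% clone 3-only (6.29% and 9.02% on the autosomes) and 1 shared peak higher. Without replicate 1 or replicate 2 the median rank shift ranged from -4.90 to 2.70, and under the other alternatives it ranged from -2.08 to 1.92, so its sign was not stable. All of these lie inside the interval of the main value. Smaller windows hold fewer peaks by construction, and the cause of the other differences was not tested. With 500 bp and with whole peaks all 16 motif shares stayed inside their main intervals, but some comparisons with the autosomes changed. At 500 bp the nuclear receptor share in Spen KO clone 3 (12.5%, and also 12.5% of distal peaks) passed the autosomal share, and the distal octamer and nuclear receptor shares in WT no longer did. The PRDM14 share in Spen KO clone 3 at 500 bp (3.12%) and the T-box share in WT over whole peaks (8%) also passed theirs, with 1 and 2 peaks. The KLF share in WT went from 12.0% to 28.0%.

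Presence in a list depends on a threshold and on read depth, which is unknown, so a list-only peak may be a peak just under the threshold in the other line. With 25 and 32 peaks, the intervals of the shares are wide, and a difference from the autosomes that falls inside them was not detectable. With 1 clone and 1 list per line, the effects of Spen, of the clone and of the culture cannot be told apart.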

Other observations

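Between 50 and 100 kb from the 9 genes the WT list had 14 further peaks, 8 of them WT-only, and the Spen KO clone 3 list had 10, 4 of them clone 3-only, beside autosomal list-only shares of 26.0% and 28.4%. With 100 kb windows the WT-only share was 35.9%, against 24.0% with 50 kb. Beyond Fgf4, 4 of the 8 WT-only peaks stood around Ccnd1, the cyclin D1 gene, 66.6 to 78.1 kb from the end of Fgf4, and the Spen KO clone 3 list had none there. Their score percentiles in WT were 35.6, 3.49, 51.1 and 12.4, and the second lay 8 bp from the Ccnd1 TSS. The Klf4 window ends short of a shared peak 68.2 kb downstream of the start, which had replicate values of 20.6 and 21.3 in WT (percentile 56.6) and 18.7 and 17.7 in Spen KO clone 3 (percentile 51.7). Upstream of Nr5a2, a WT-only peak (18.1 and 12.0, percentile 24.8) and a clone 3-only peak (12.2 and 8.21, percentile 9.69) stood 91.2 and 91.9 kb from the start without overlapping. These peaks were chosen after their values were seen.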
